A study of Mus musculus with 5 samples.

Results

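The 10 genes described here belong to the hypoxia response and to glycolysis. They were chosen by name, as the rows of the deposited count table called Slc2a1, Hk2, Pgk1, Ldha, Pdk1, Car9, Bnip3, Ndrg1, Egln3 and Vegfa, and all 10 were found among the 54532 genes of the table. All 10 passed the filter on low counts that left 17906 genes for testing. RNA-seq of 5 small cell lung cancers of mice, which are pulmonary neuroendocrine tumours, gave the values. The tumours were collected at necropsy and frozen, and all carried the genotype RPP, an abbreviation left unexplained in the labels. Vehicle was given to 2 of them and LSN to 3, where the series names an Aurora A kinase inhibitor as the treatment. The sources used here do not give dose, time, age, the driver of any Cre, or whether each tumour came from its own animal. The p-values therefore treat the 5 tumours as independent, and their spread may not be that between animals.

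Cells that lack oxygen stabilise the alpha subunits of hypoxia-inducible factor (HIF), which pair with Arnt and switch on genes for glucose uptake, glycolysis, acid export and blood vessel growth. In normal oxygen, prolyl hydroxylases of the Egln family mark HIF for destruction through the Vhl protein. Many tumours also run glycolysis at a high rate when oxygen is present, so these transcripts report on metabolism as well as on oxygen.

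Total counts lay between 17439049 and 19766604 per tumour, and a count of 3 corresponded to at most 0.167 CPM, the unit of level used below (counts relative to library size, scaled between tumours by the trimmed mean of M-values, TMM). The tumour label fitted the neuroendocrine markers, whose 12 genes summed to between 2599 and 9742 CPM with none at 0. The tumours were not pure tumour cells: alveolar type 2 markers summed to between 827 and 9327 CPM and red blood cell markers to between 11 and 780 CPM. In such tissue, fewer cells of a type and less RNA per cell cannot be told apart. The tumours differed widely within each group, and the pair with the closest expression over all genes was a vehicle with an LSN tumour, vehicle replicate 2 with LSN replicate 1 (Pearson r = 0.934 across genes, against 0.887 for the 2 vehicle tumours).

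None of the 10 genes separated the LSN from the vehicle tumours. What varied was the single tumour: vehicle replicate 2 and LSN replicate 1 were the lowest of the 5 for Slc2a1, Pgk1, Ldha, Pdk1, Bnip3, Ndrg1 and Egln3. LSN replicate 2 was the highest for 8 of the 10 genes, beside 24.8% of all genes tested. Within the LSN group the highest tumour exceeded the lowest by between 1.20 times for Pgk1 and 6.20 times for Hk2. The group means lay closer together than that for every member.

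**Figure D1:**
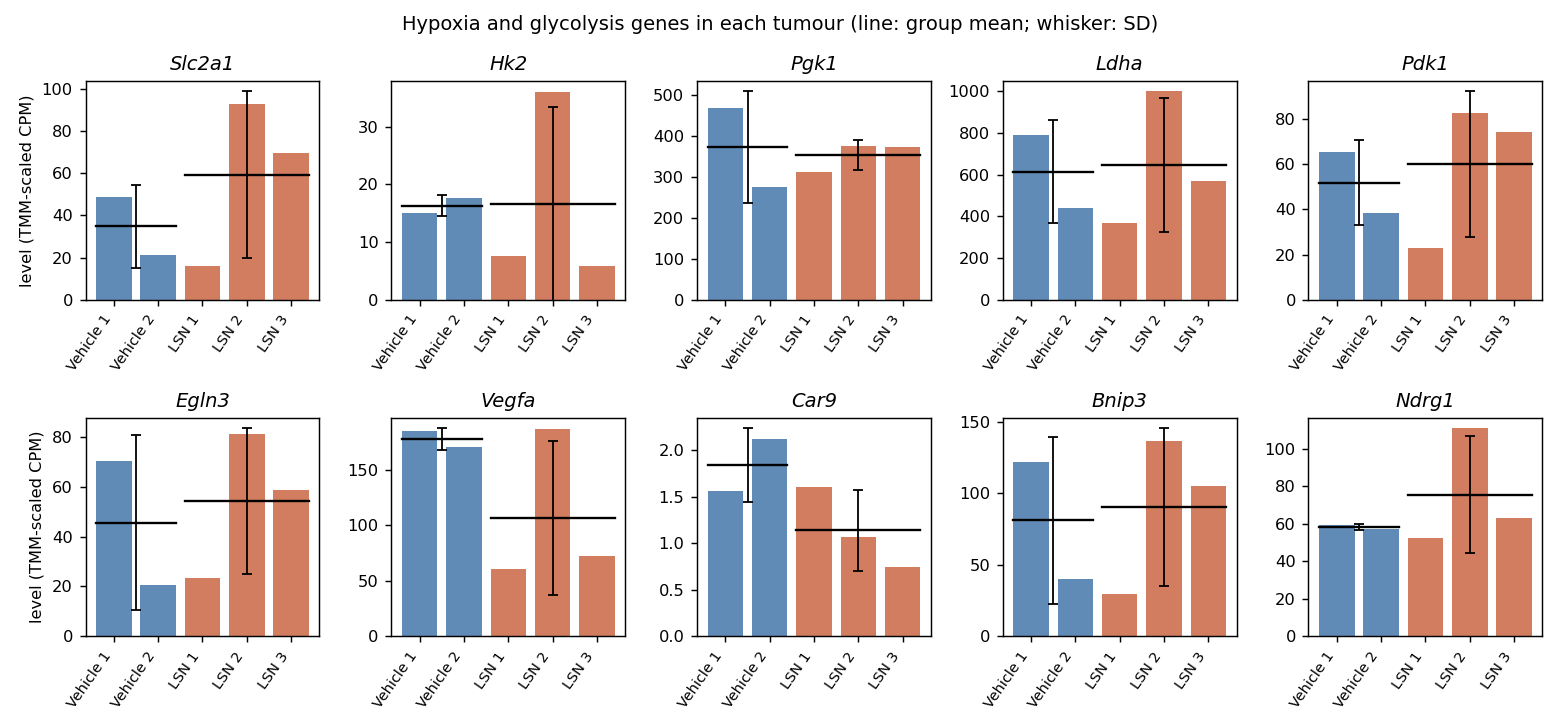
Level of each gene (y axis, TMM-scaled CPM from 0, a scale of its own per gene) in the 2 vehicle tumours (blue) and the 3 LSN tumours (orange), with the group mean as a line and the SD as a whisker, which runs below the axis for Hk2 with LSN. Bars of both colours interleave in every panel, and LSN replicate 2 has the tallest bar in 8 of 10 panels.

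Glucose enters the cell through transporters such as Slc2a1 (GLUT1; chromosome 4, 119108711 to 119137983 in mm10). Its level was 48.8 and 21 CPM with vehicle and 15.9, 92.7 and 69.5 CPM with LSN, here and below in the order of the replicates. The LSN group thus held both the lowest and the highest tumour, and the 2 groups overlapped. The log2 fold change of LSN over vehicle was 0.76 ± 0.80 (SE), the highest of the 10 genes (edgeR, adjusted p = 0.9996).

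Hexokinase traps glucose in the cell as a phosphate, and Hk2 (chromosome 6, 82725025 to 82774454) is its inducible form. Hk2 had 15.1 and 17.6 CPM in the vehicle tumours and 7.68, 36.1 and 5.82 CPM with LSN. Both vehicle values fell inside the LSN range, of which LSN replicate 2 formed the upper end alone. The mean was 16.3 ± 1.83 CPM (SD, n = 2) with vehicle and 16.5 ± 17 CPM (SD, n = 3) with LSN.

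Further down the pathway, Pgk1 (chromosome X, 106187100 to 106203699), phosphoglycerate kinase, makes ATP, and Ldha (chromosome 7, 46841475 to 46855627), lactate dehydrogenase A, turns pyruvate into lactate. Pgk1 was the steadiest of the 10, at 469 and 276 CPM with vehicle and 313, 376 and 373 CPM with LSN. All LSN values of Pgk1 lay between the 2 vehicle values, and its log2 fold change was -0.07 ± 0.29 (SE). Ldha had 789 and 440 CPM with vehicle and 369, 999 and 570 CPM with LSN. Its lowest and its highest value were both in the LSN group, with a log2 fold change of 0.07 ± 0.50 (SE). Reads of near-identical copies may be shared, but the named copies of Pgk1 and Ldha in the table held at most 3 counts in any tumour.

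Pdk1 (chromosome 2, 71873224 to 71903858), pyruvate dehydrogenase kinase 1, holds pyruvate back from the mitochondrion. It had 65.2 and 38.5 CPM with vehicle and 22.9, 82.5 and 74.2 CPM with LSN, so that LSN replicates 2 and 3 lay above both vehicle tumours and LSN replicate 1 below both. The log2 fold change was 0.21 ± 0.60 (SE).

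Among the genes of oxygen sensing and response, Egln3 (chromosome 12, 54178981 to 54203860) encodes a HIF prolyl hydroxylase that is itself induced by HIF. Egln3 had 70.4 and 20.7 CPM with vehicle and 23.2, 81.0 and 58.4 CPM with LSN. The 2 vehicle tumours differed by 3.40 times, the widest gap between them for any of the 10 genes. Bnip3 (chromosome 7, 138890836 to 138909519), a mitochondrial protein of mitophagy and cell death, followed the same tumours, with 122 and 40.0 CPM with vehicle and 29.5, 137 and 105 CPM with LSN. For both genes vehicle replicate 2 and LSN replicate 1 were low and the other 3 tumours high. Log2 fold changes were 0.25 ± 0.72 (SE) for Egln3 and 0.16 ± 0.76 (SE) for Bnip3.

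Ndrg1 (chromosome 15, 66929318 to 66969640), a stress-responsive gene of the N-myc downregulated family, was nearly level in 4 tumours. It had 59.6 and 57.2 CPM with vehicle and 52.3, 111 and 63.1 CPM with LSN. LSN replicate 2 stood above the rest, and the log2 fold change was 0.37 ± 0.38 (SE).

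Vegfa (chromosome 17, 46016993 to 46032369) encodes the main growth factor for blood vessels. It had 185 and 171 CPM with vehicle and 61.0, 187 and 72.4 CPM with LSN. LSN replicates 1 and 3 were below both vehicle tumours, but LSN replicate 2 was above both. The log2 fold change, -0.74 ± 0.52 (SE), was the lowest of the 10 and had the smallest p of the 10 (edgeR, unadjusted p = 0.214, adjusted p = 0.9996). Alveolar type 1 cells are a known source of Vegfa in lung, and all 8 of their markers had lower mean log2 CPM with LSN. These 8 markers, none at 0, summed to 396 and 769 CPM with vehicle and 331, 101 and 189 CPM with LSN. LSN replicate 2 had the highest Vegfa with the lowest sum of these markers. The part of lung cells in the Vegfa values was not tested.

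Car9 (chromosome 4, 43506966 to 43513729), carbonic anhydrase IX, handles acid at the cell surface and is a common marker of hypoxic tumour regions. It was barely detected, at 29 and 38 counts with vehicle and 29, 20 and 14 counts with LSN, or 0.741 to 2.12 CPM. It was the one member for which LSN replicate 2, at 1.07 CPM, lay below both vehicle tumours. The library kit did not keep strand, and the antisense gene Gm12454, which shares exon bases with Car9, had 21 and 16 counts with vehicle and 7, 16 and 23 counts with LSN. Reads of the 2 genes cannot be told apart, so the level of Car9 is uncertain. Overlapping genes held at most 7 counts in any tumour for the other members that had one (Slc2a1, Bnip3 and Ndrg1).

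Levels were also set per kilobase of a gene's merged exons, so their order depends on the annotation. The order of mean levels over the 5 tumours began with Ldha, at 191 ± 78.3 CPM per kilobase (SD, n = 5), and Pgk1, at 161 ± 32.8. It ended with Hk2, at 2.76 ± 2.02, and Car9, at 0.616 ± 0.230. Between these lay Bnip3 at 38.3, Vegfa at 31.5, Egln3 at 19.1, Slc2a1 at 14.1, Ndrg1 at 10.4 and Pdk1 at 7.28 CPM per kilobase. Some neighbours did not differ beyond their spread. Ldha exceeded Pgk1 in 4 of 5 tumours, Bnip3 exceeded Vegfa in 3, Vegfa exceeded Egln3 in 4 and Slc2a1 exceeded Ndrg1 in 3. Each of the other neighbouring pairs kept its order in all 5 tumours, but Ndrg1 and Pdk1 were nearly equal in LSN replicate 3 (9.57 and 9.54).

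By edgeR's quasi-likelihood test on all genes, 0 of the 10 genes passed an adjusted p of 0.05 and 0 reached an unadjusted p under 0.05. Over all 17906 genes, 0.00% passed the adjusted threshold and 4.27% (764 genes) the unadjusted one, so that the count for the 10 genes was that of the background. DESeq2 called 0.485% of the 19605 genes with an adjusted p, and 1218 of the 30334 genes with a p (4.02%) were at an unadjusted p under 0.05. limma-voom called 0.00% of 17906 genes, with 4.79% (858 genes) at an unadjusted p under 0.05. Neither called any of the 10. The LSN values lay wholly above the vehicle values for 0 of the 10 genes, against 8.48% of all genes, and wholly below for 0, against 10.4%. The median difference in mean log2 CPM was 0.03 over the 10 genes, with 6 above 0 and 4 below, beside 0.00036 over all genes tested. The intervals were wide. The 95% interval of the log2 fold change ran from -0.80 to 0.66 for Pgk1, the narrowest, and from -2.17 to 2.21 for Hk2, the widest. The upper limits for Slc2a1, Bnip3 and Egln3 were 2.77, 2.07 and 2.05, and the lower limits for Car9 and Vegfa were -2.27 and -2.05.

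**Figure D2:**
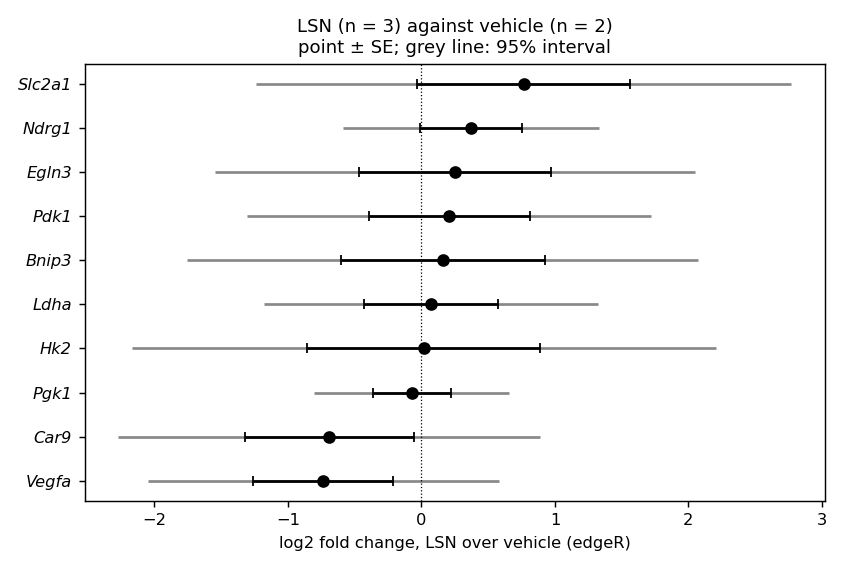
Log2 fold change of LSN over vehicle for each gene (x axis; edgeR), with the SE as black whiskers and the 95% interval as a grey line. All 10 intervals cross 0, and Slc2a1 (0.76) and Vegfa (-0.74) lie at the ends.

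Most of the genes varied together from tumour to tumour. For 7 of the 10 genes the 2 lowest tumours were vehicle replicate 2 and LSN replicate 1, a pair that was lowest for 18.1% of all genes tested. The pair was singled out after its values were seen, so this is a description of these tumours. With each gene centred on its own mean, the mean profile of the 10 was 0.37 and -0.28 log2 CPM with vehicle and -0.74, 0.70 and -0.05 log2 CPM with LSN. Each gene's likeness to this profile was measured as the root mean square difference over the 5 tumours. Ldha was nearest, at 0.08, and Car9 farthest, at 0.81. Of all pairs of members, Bnip3 and Egln3 were most alike (0.21) and Slc2a1 and Car9 least (1.38). Vegfa and Hk2 departed in their own way: Vegfa was as high in vehicle replicate 2 as in vehicle replicate 1, and Hk2 was lowest in LSN replicate 3, where Slc2a1 and Pdk1 were second highest.

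**Figure D3:**
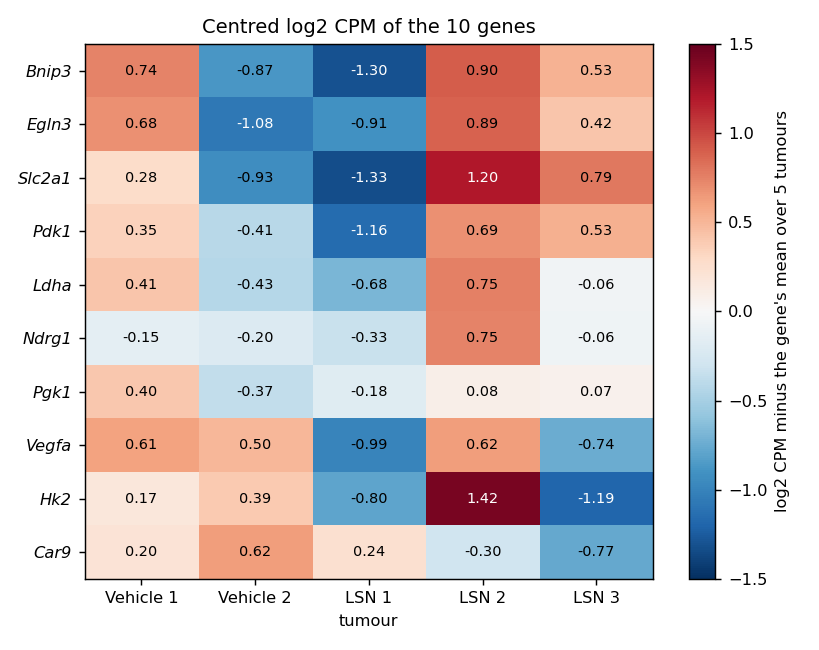
Log2 CPM of each gene minus its own mean over the 5 tumours (colour and printed value), genes in rows and tumours in columns. Bnip3, Egln3, Slc2a1 and Pdk1 are negative in vehicle replicate 2 and LSN replicate 1 and positive in the other 3 tumours, and Car9 runs differently.

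Outside the pathway lists, the genes with the profile most like the mean of the 10 were Plekhj1 (0.04), which encodes a pleckstrin homology domain protein, Ankrd24 (0.075), an ankyrin repeat protein, and Klf3 (0.078), a zinc finger transcription factor. They were the nearest of 12113 protein-coding genes with a mean of at least 5 CPM, whose median difference was 0.61. Klf3 had 102 and 63.4 CPM with vehicle and 48.0, 112 and 73.9 CPM with LSN, which are the same ranks as those of Ldha.

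Promoters were read for the short core motif that HIF binds, ACGTG or GCGTG. The RefSeq promoter table (GRCm38.p6, the assembly of mm10) held 9 of the 10 genes with 12 start sites. In the 250 bases before the start, on both strands, 10 of 12 windows (83.3%) held at least 1 match. Over the whole table, 38.6% of 32851 windows of the same length did. The genes were chosen by name for hypoxia and glycolysis, so more matches than in other genes could follow from that choice. All 9 genes read held a match at 1 or more of their starts, beside 41.5% of the 27025 genes of the whole table. They include Hk2, Car9 and Vegfa, which did not have vehicle replicate 2 and LSN replicate 1 as their lowest pair. The members' windows were also richer in G and C, with a median of 61.2% against 52.4%. The overlapping word CACGTG holds ACGTG on both strands and was counted once for each. The 4 windows below are those of the first listed start of members whose lowest tumours were vehicle replicate 2 and LSN replicate 1, and they overlap no annotated exon. They are shown 5′ to 3′ along the gene, with matches in capitals, where CACGT and CACGC are matches on the opposite strand.

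Ldha, chr7:46845554-46845803, plus strand: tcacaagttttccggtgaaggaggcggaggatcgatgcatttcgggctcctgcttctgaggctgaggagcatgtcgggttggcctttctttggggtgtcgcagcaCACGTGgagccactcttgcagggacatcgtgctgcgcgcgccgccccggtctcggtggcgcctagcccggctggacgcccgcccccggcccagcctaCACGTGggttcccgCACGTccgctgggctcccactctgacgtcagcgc
Pgk1, chrX:106186850-106187099, plus strand: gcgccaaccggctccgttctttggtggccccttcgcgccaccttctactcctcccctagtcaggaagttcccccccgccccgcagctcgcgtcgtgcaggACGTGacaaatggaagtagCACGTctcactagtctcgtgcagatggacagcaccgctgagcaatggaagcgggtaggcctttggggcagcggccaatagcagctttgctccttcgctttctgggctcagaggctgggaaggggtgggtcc
Pdk1, chr2:71872974-71873223, plus strand: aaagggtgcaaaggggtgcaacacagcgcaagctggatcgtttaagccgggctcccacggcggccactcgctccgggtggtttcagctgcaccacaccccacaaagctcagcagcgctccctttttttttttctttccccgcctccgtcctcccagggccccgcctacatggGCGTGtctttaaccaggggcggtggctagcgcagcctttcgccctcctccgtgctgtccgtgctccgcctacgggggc
Egln3, chr12:54203875-54204124, minus strand: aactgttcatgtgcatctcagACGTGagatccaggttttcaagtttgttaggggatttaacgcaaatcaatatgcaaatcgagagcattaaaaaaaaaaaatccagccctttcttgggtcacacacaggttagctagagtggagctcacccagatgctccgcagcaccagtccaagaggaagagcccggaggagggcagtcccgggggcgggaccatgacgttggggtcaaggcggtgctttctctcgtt

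The Ldha window held 5 matches, in 3 clusters, the nearest ending 29 bases before the start. Pgk1 had 2 matches, 126 and 145 bases before its start, Pdk1 had 1 at 73 bases and Egln3 had 1 at 224 bases. Of the windows not printed, the second start of Ldha held 1 match and that of Pdk1 0. The window of Bnip3 held 5 matches, those of Slc2a1 and Hk2 held 2 each, and that of Car9 held 1, ending 13 bases before the start. The first Vegfa start had 0 and its second start, within the gene, had 2. A match is a string of letters and not a measured binding site, and its part in the tumour profiles was not tested.

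Several members have relatives that do the same reaction, and shares per kilobase of merged exons compare their levels. These shares depend on the annotated lengths. Ldha made up 86.7 to 99.4% of Ldha and Ldhb together in every tumour. Ldhb, the form that favours pyruvate, had 23.4 and 31.9 CPM with vehicle and 22.8, 2.95 and 9.05 CPM with LSN, all LSN values below both vehicle values (edgeR, unadjusted p = 0.186, adjusted p = 0.9996). Hexokinase was mostly Hk1, and Hk2 gave 12.7 and 19.2% with vehicle and 7.01, 18.6 and 4.56% with LSN.

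The balance of Slc2a1 and Slc2a3, the 2 glucose transporters compared here, differed between tumours. Slc2a1 took 92.9 and 69.5% of Slc2a1 and Slc2a3 together with vehicle and 44.3, 97.1 and 98.6% with LSN. Slc2a3, the high-affinity transporter GLUT3, had 7.74 and 19.1 CPM with vehicle and 41.3, 5.73 and 2.01 CPM with LSN. The tumours with the lowest Slc2a1, vehicle replicate 2 and LSN replicate 1, had the highest Slc2a3.

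Per kilobase, Pdk3 had the largest share of the 4 pyruvate dehydrogenase kinases in every tumour, at 40.4 to 63.4%. Pdk1 ranged from 12% in LSN replicate 1 to 37.5% in LSN replicate 3, where Pdk3 had 40.4%. This order rests on the division by length, 7779 bases for Pdk1 and 2561 for Pdk3. In CPM, Pdk1 exceeded Pdk3 in every tumour but LSN replicate 1, where they had 22.9 and 37.8 CPM. Pdk2 took 7.92 to 23.0% and Pdk4 1.11 to 9.01%. Among the prolyl hydroxylases, Egln3 was 36.9 and 12.3% with vehicle and 14.1, 38.0 and 27.2% with LSN. Its relatives varied less, Egln1 between 72.5 and 133 CPM and Egln2 between 60.8 and 76.3 CPM. Bnip3 gave 54.4 and 24.0% of Bnip3 and Bnip3l with vehicle and 18.6, 45.8 and 34.1% with LSN. Bnip3l, a mitophagy receptor also known as NIX, had 174 and 216 CPM with vehicle and 220, 276 and 347 CPM with LSN, which do not overlap, without passing the test (edgeR, unadjusted p = 0.108, adjusted p = 0.9996).

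Vegfa was 56.6 and 48.7% of the 5 VEGF family ligands with vehicle and 32.0, 54.4 and 28.8% with LSN. Vegfb, at 29.9 to 42.2 CPM, and Pgf, at 21.9 to 47.5 CPM, varied less than Vegfa, while Vegfc was at most 7.23 CPM. Ndrg1 took 12.4 to 47.4% of the 4 Ndrg genes. Ndrg3 was at 70.6 to 127 CPM, and Ndrg2 and Ndrg4 had their highest values, 80.3 and 84.4 CPM, in LSN replicate 1. Car12, a relative of Car9, had 11.9 CPM in LSN replicate 1 and at most 2.29 CPM in the other tumours.

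**Figure D4:**
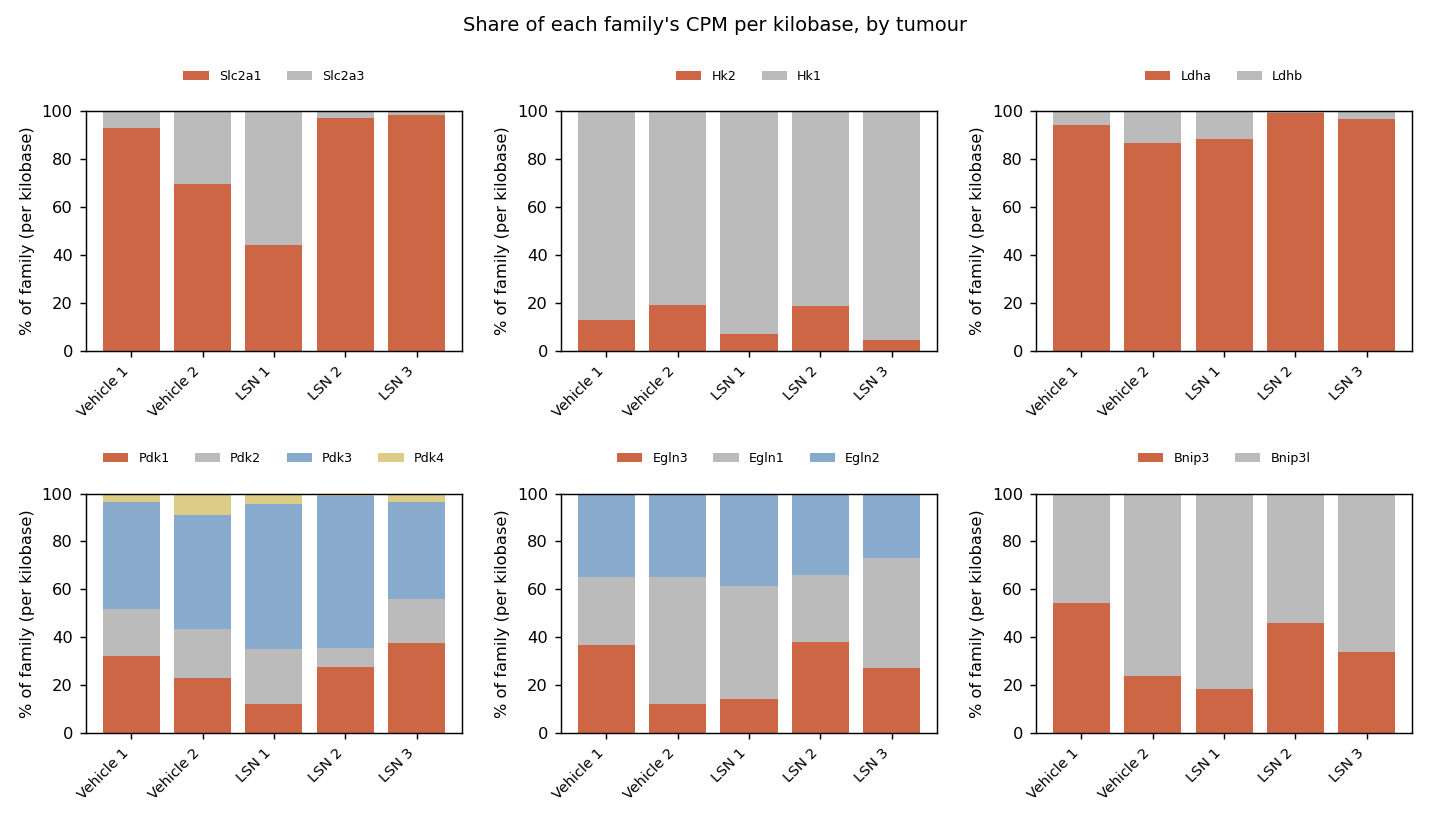
Share of each gene in the summed CPM per kilobase of its family (y axis, percent) in each tumour (x axis). The share of Slc2a1 is 44.3% in LSN replicate 1 and 69.5 to 98.6% elsewhere, and that of Ldha is at least 86.7% in every tumour.

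The HIF system itself was transcribed in every tumour. Hif1a had 129 and 122 CPM with vehicle and 118, 119 and 257 CPM with LSN, and was thus highest in LSN replicate 3, whereas most members were highest in LSN replicate 2. Epas1, which encodes HIF-2 alpha and is also abundant in lung endothelium, had 197 and 134 CPM with vehicle and 62.0, 149 and 55.2 CPM with LSN. LSN replicates 1 and 3 were the lowest for both Epas1 and Vegfa. Endothelial markers, 9 genes with none at 0, summed to 739 and 518 CPM with vehicle and 165, 674 and 507 CPM with LSN. Their mean log2 CPM, in which each marker counts alike, was 5.24 and 5.43 with vehicle and 3.55, 4.23 and 3.44 with LSN, and 7 of the 9 were lowest in LSN replicate 3. Their part in the Epas1 and Vegfa values was not tested. Arnt lay between 60.0 and 99.9 CPM and Vhl between 32.4 and 48.8 CPM. Siah1a, a ubiquitin ligase that acts on the prolyl hydroxylases, had 50.6 and 43.9 CPM with vehicle and 32.4, 30.1 and 35.8 CPM with LSN (edgeR, unadjusted p = 0.0784, adjusted p = 0.9996). Of 12 other subunits and sensors, 6 were above 0 and 6 below, and 0 passed. In all LSN tumours 0 were higher and 1 lower, beside 8.48% and 10.4% of all genes.

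The glycolytic enzymes as a group had the same low tumours as the members. Leaving out Hk2, Pgk1 and Ldha, 18 enzymes were tested, and vehicle replicate 2 and LSN replicate 1 were the 2 lowest for 10 of them, beside 18.1% of all genes. Aldoa, Tpi1 and Eno1, chosen after their values were seen, show it. Aldoa, an aldolase, had 807 and 381 CPM with vehicle and 223, 1082 and 410 CPM with LSN. Tpi1, triosephosphate isomerase, had 611 and 348 CPM with vehicle and 360, 800 and 721 CPM with LSN. The enolase gene Eno1 reached 1744 CPM in LSN replicate 3 and 279 and 302 CPM in vehicle replicate 2 and LSN replicate 1. Between the groups, 15 of the 18 enzymes were above 0 with a median difference of 0.36 in log2 CPM, and 0 passed. In all LSN tumours 3 were higher and 1 lower, beside 8.48% and 10.4% of all genes. Hk1 had the smallest p of these enzymes, at 148 and 106 CPM with vehicle and 146, 226 and 174 CPM with LSN (edgeR, unadjusted p = 0.129, adjusted p = 0.9996). Pfkl, a phosphofructokinase, came next, at 118 and 77.8 CPM with vehicle and 91.7, 326 and 156 CPM with LSN (edgeR, unadjusted p = 0.154, adjusted p = 0.9996).

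Transporters other than Slc2a1 were mixed. Slc16a7, a monocarboxylate transporter (MCT2), had 60.9 and 71.6 CPM with vehicle and 123, 122 and 117 CPM with LSN, so that the groups did not overlap. Its log2 fold change was 0.87 ± 0.21 (SE), but it did not pass over all genes (edgeR, unadjusted p = 0.00741, adjusted p = 0.9996). Slc2a12, a glucose transporter, lay the other way, at 6.02 and 7.42 CPM with vehicle and 2.15, 1.34 and 0.424 CPM with LSN (edgeR, unadjusted p = 0.027, adjusted p = 0.9996). Over the 9 transporters tested, 6 were above 0 and 3 below, and 0 passed. In all LSN tumours 1 was higher and 1 lower, beside 8.48% and 10.4% of all genes. Among the 15 other regulators of glycolysis and pyruvate entry, 10 were above 0, the groups overlapped for every gene and 0 passed. Pdk3, at 62.5 CPM, and Pdp1, the phosphatase that opposes the kinases, at 139 CPM, were both highest in LSN replicate 2.

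Other hypoxia-inducible genes did not follow the members as one group. LSN replicate 1 was the lowest tumour for 18 of the 42 tested, as it was for 6 of the 10 members, beside 17.4% of all genes. Vehicle replicate 2 and LSN replicate 1 were the lowest pair for 12 of the 42, beside 18.1% of all genes. Among the 12 were P4ha1, a collagen prolyl hydroxylase, and Ankrd37, a known HIF target, both chosen after their values were seen. Vehicle replicate 2 was the highest tumour for 16 of the 42, but the share of all genes that were highest there was not computed. Hmox1, heme oxygenase, was among the 16, at 155 CPM against 31.9 to 76.2 CPM elsewhere, and was chosen in the same way. Macrophage and monocyte markers, 11 genes with none at 0, summed to 1681 CPM in vehicle replicate 2 and to 403 to 765 CPM in the other tumours, and fibroblast and smooth muscle markers, 10 genes with none at 0, to 1547 CPM and 437 to 842 CPM. Their part in these values was not tested. In the comparison of groups, 16 of 42 were above 0 and 26 below, with a median of -0.21, and 0 passed. All LSN values lay above both vehicle values for 2 of the 42 and below for 8, beside 8.48% and 10.4% of all genes. Narf, a nuclear protein that binds prelamin A, had 36.4 and 42.3 CPM with vehicle and 71.8, 83.4 and 127 CPM with LSN, without overlap (edgeR, unadjusted p = 0.0109, adjusted p = 0.9996). Selenbp1, a selenium-binding protein, had 90.9 and 193 CPM with vehicle and 61.8, 21 and 43.5 CPM with LSN (edgeR, unadjusted p = 0.0208, adjusted p = 0.9996).

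The list of VEGF receptors and other ligands also held the angiopoietins Angpt1 and Angpt2 and their receptor Tek. Its genes lay mostly below 0 with LSN, for 9 of 12 genes with a median difference of -0.83 in log2 CPM, and 0 passed. All LSN values lay below both vehicle values for 5 of the 12 and above for 0, beside 10.4% and 8.48% of all genes. The receptor Kdr, borne by endothelium, had 27.8 and 43.8 CPM with vehicle and 11.3, 25.0 and 9.95 CPM with LSN (edgeR, unadjusted p = 0.0613, adjusted p = 0.9996). Flt4, the lymphatic receptor, had 10.9 and 26.0 CPM with vehicle and 6.63, 8.20 and 3.44 CPM with LSN (edgeR, unadjusted p = 0.0421, adjusted p = 0.9996). The mean log2 CPM of 8 of the 9 endothelial markers was lower with LSN. Kdr and Tek are in both lists, and the part of endothelium in the receptors was not tested.

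Genes of mitochondrial pathways were mostly lowest in vehicle replicate 2. Of 16 tricarboxylic acid cycle genes, 12 were lowest in vehicle replicate 2 and 0 in LSN replicate 1, and of 20 nuclear respiratory chain genes 16 and 1. Over all genes tested, 21.1% were lowest in vehicle replicate 2 and 17.4% in LSN replicate 1. Of the 18 glycolytic enzymes outside the members, 9 were lowest in vehicle replicate 2 and 6 in LSN replicate 1. The difference between these lists was not tested. The cycle genes were above 0 with LSN for 13 of 16 and the chain genes for 16 of 20, and 0 passed in each. Ogdh, a subunit of the oxoglutarate dehydrogenase complex, had 264 and 203 CPM with vehicle and 360, 325 and 350 CPM with LSN (edgeR, unadjusted p = 0.0463, adjusted p = 0.9996). Cs, citrate synthase, had 243 and 242 CPM with vehicle and 319, 370 and 282 CPM with LSN. Atp5b, a subunit of ATP synthase, had 898 and 719 CPM with vehicle and 1056, 1468 and 1041 CPM with LSN. For Cs and Atp5b too the groups did not overlap. All LSN values lay above both vehicle values for 2 of the 16 cycle genes and 2 of the 20 chain genes, beside 8.48% of all genes. They lay below both for 0 and 1, beside 10.4% of all genes. Cox4i2, a hypoxia-inducible subunit of cytochrome c oxidase that is high in lung, had 10.4 and 5.41 CPM with vehicle and 1.88, 2.30 and 3.28 CPM with LSN (edgeR, unadjusted p = 0.0322, adjusted p = 0.9996).

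**Figure D5:**
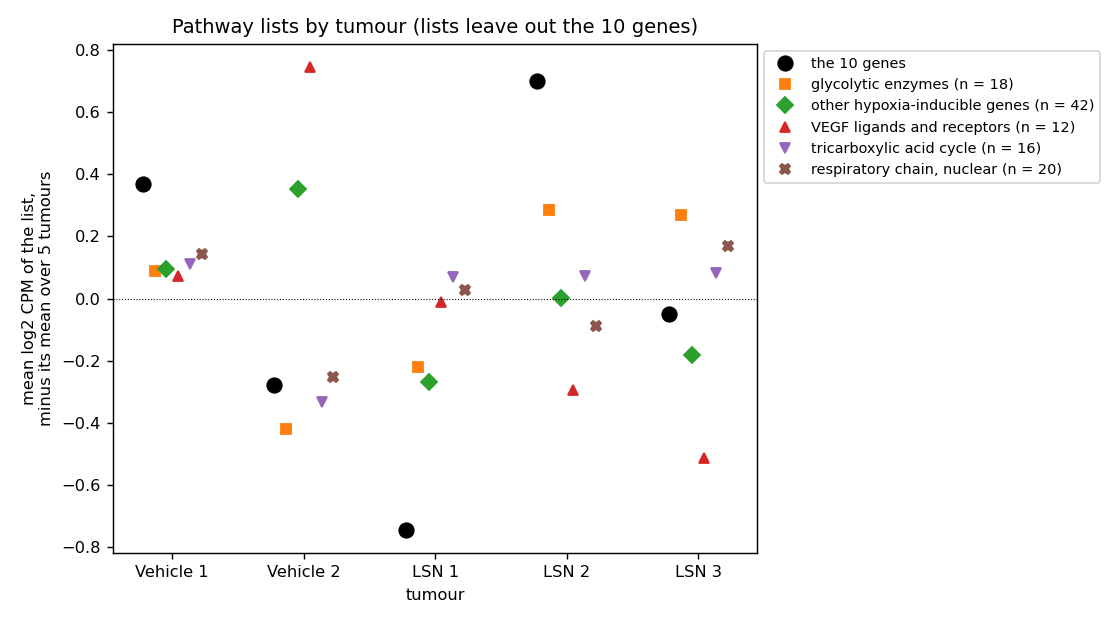
Mean log2 CPM of each list in each tumour, minus the list's mean over the 5 tumours (y axis), with the 10 genes left out of the other lists. The 10 genes and the glycolytic enzymes are both negative in vehicle replicate 2 and LSN replicate 1, whereas the VEGF and other hypoxia lists are highest in vehicle replicate 2.

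LSN replicate 2, with the highest sum of the 10 genes (2103 CPM), had the lowest red blood cell markers, 11 CPM for 5 genes with none at 0, against 294 to 780 CPM elsewhere, the lowest alveolar type 1 and type 2 markers and the highest neuroendocrine markers (9742 CPM). LSN replicate 1, with the lowest sum of the 10 genes (896 CPM), had 6085 CPM of neuroendocrine markers, above LSN replicate 3 (5594 CPM), whose 10 genes summed to 1392 CPM. Vehicle replicate 2 had the lowest neuroendocrine sum, 2599 CPM, and vehicle replicate 1 had 7367 CPM, with 1083 and 1825 CPM of the 10 genes. Airway markers, 6 genes with none at 0, summed to 5085 and 2783 CPM with vehicle and 885, 61.5 and 355 CPM with LSN, and all 6 had a lower mean log2 CPM with LSN. The part of tissue make-up in the members' profile was not tested.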

How the data were processed

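Per the labels' protocols, the authors made non-stranded libraries, mapped paired reads to mm10 with STAR and tested with DESeq2, and the counting program is not given in the sources used here. They deposited raw read counts per gene, whole numbers, and the length of each gene, which equalled the merged exons of GENCODE M21 for all 10 members. Groups came from the treatment label. The members and lists were chosen with earlier results of these data known. LSN was compared with vehicle by the quasi-likelihood test of edgeR 4.0.16 (R 4.3.3, robust, TMM, filterByExpr with a minimum count of 10 and total of 15), adjusted over 17906 genes by Benjamini-Hochberg. The test was checked on simulated data. List differences are of mean log2 CPM (prior count 2). Intervals of fold changes use the SE and the degrees of freedom of the fit. Of the 2 rows named Aldoa, the one with more counts was used. Alternatives were DESeq2 1.42.0, limma-voom (limma 3.58.1), other scalings and filters, and leaving out each tumour. Besides the 10 members, the text names the 2 genes with the smallest p of each of 8 pathway lists, a fixed set of relatives, and the 3 genes nearest in profile. Some genes are not reported here. Any further gene was picked with its values in view, which the text states. Marker lists of 12 tissues or cell types were summed. An exact permutation test of 2 against 3 cannot go below 0.1. The floor of 3 counts covers counting error only.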

Additional observations from a re-analysis of the deposited data

How the results depend on the processing

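No paired analysis was possible because the labels give each tumour a number of its own, and the replicate numbers used here only name the tumours in the order of their deposition. With 2 and 3 tumours, all of these counts and values are imprecise. DESeq2 called 95 genes and every other setting, including each tumour left out, 0, and none of the 10 members was called under any setting. The members' median difference was 0.04 with RLE scaling or no filter, -0.05 with total counts, 0.03 with a prior count of 0.5, and between -0.41 and 0.43 with 1 tumour left out: 0.40 and -0.41 without vehicle replicates 1 and 2, and 0.43, -0.30 and -0.02 without LSN replicates 1, 2 and 3. Of the 10 members, 1 was above 0 without vehicle replicate 2 or LSN replicate 2 and 7 without vehicle replicate 1 or LSN replicate 1. The direction of this median thus rested on single tumours. Log2 fold changes on the other side of 0 were -0.096 for Hk2 and -0.034 for Ldha, -0.045 for Egln2 and -0.0075 for Vhl with total counts, and -0.47 for Hk2, -0.64 for Slc2a3 and -0.78 for Car12 with limma-voom. With 1 tumour left out, signs changed for 7 members, with ranges of -1.28 to 0.41 for Hk2, -0.40 to 0.37 for Pgk1, -0.39 to 0.56 for Ldha, -0.12 to 0.65 for Pdk1, -0.43 to 1.19 for Bnip3, -0.37 to 1.4 for Egln3 and -0.018 to 0.57 for Ndrg1. The others kept theirs, at 0.28 to 1.51 for Slc2a1, -1.41 to -0.46 for Vegfa and -1.02 to -0.45 for Car9. Among the relatives, ranges crossed 0 for Slc2a3 (-1.80 to 1.08), Pdk2 (-0.27 to 0.14), Egln1 (-0.17 to 0.55), Egln2 (-0.047 to 0.15), Pgf (-0.26 to 0.34), Vhl (-0.17 to 0.39), Vegfb (-0.22 to 0.13), Arnt (-0.14 to 0.30), Car12 (-2.46 to 1.68), Ndrg2 (-0.087 to 1.33), Ndrg4 (-0.036 to 0.73) and Hif1a (-0.088 to 0.58). The cause of these changes, other than fewer tumours, was not tested. At 14 to 38 counts, Car9 is limited by depth.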
